A study of Mus musculus with 30 samples.

Results

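The 10 genes studied here belong to the EGR, NR4A, KLF and IER families, and they were followed through whole mouse kidney: Egr1, Egr2, Egr3, Nr4a1, Nr4a2, Nr4a3, Klf2, Klf4, Klf6 and Ier2. They were chosen by name, and all 10 had 1 row each among the 57133 genes of the count tables. The libraries were made from poly-A RNA of kidneys of wild-type mice (WT) and of mice whose genotype the labels name Gsta2-H2BeGFP (TG), a name that joins Gsta2, a glutathione transferase gene, to a green fluorescent protein fused to a histone. Without surgery there were 3 WT males, 3 TG males, 3 WT females and 3 TG females. A kidney had been removed (nephrectomy, NX) in another 3 WT and 3 TG males. A further 6 WT and 6 TG males had NX plus ischemia-reperfusion injury (IRI), in which blood flow to the organ is stopped and then restored. The series design places the IRI kidneys at 4 hours after the injury, and the comparison it states is WT against TG at that time. The NX groups carried the nephrectomy of the IRI groups without the ischemia. The labels give no age, strain or founder line, no time for the NX kidneys, and do not say whether libraries are of separate animals, so the spread behind each p-value is that between libraries and may in part be technical.

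All 10 genes code for immediate early or early response nuclear proteins. EGR proteins are zinc finger activators that bind a GC-rich site, and their genes are switched on by growth factor and stress signals through serum response factor (SRF) and ETS-type partners bound at CArG boxes. NR4A proteins are orphan nuclear receptors that act without a known ligand and are controlled mainly by how much is made, with cyclic AMP response elements (CRE) in their promoters as a classical route. KLF proteins are zinc finger factors that bind CACCC boxes. Klf2 and Klf4 are known for quiescent, flow-exposed endothelium, Klf4 also for differentiated epithelium, and Klf6 for injury responses in many tissues including kidney tubules. Ier2 is a short intronless early gene for a small nuclear protein.

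Levels are given in CPM, read counts brought to 1 scale by TMM within each table, as mean ± SD, and changes as log2 fold changes ± SE. A change was called at a Benjamini-Hochberg adjusted p under 0.05 in edgeR's quasi-likelihood test, adjusted over all genes tested. The no-surgery table held 12 libraries of 49040915 to 66446450 counts, and a second table the 18 NX and IRI libraries of 59574069 to 91354407. EGFP was listed at 0 in all WT libraries but 1, with 206 counts in the library labelled WT IRI replicate 1. That is 2.59 CPM, and the TG IRI libraries had 1.19 to 6.34 CPM of EGFP (86 to 456 counts), so its EGFP goes against its label, and the genotype comparison after IRI is also given without it. Gsta2 stood at 84.1 ± 33.3 CPM in WT IRI and 77.4 ± 9.73 CPM in TG IRI, with overlapping groups. Neutrophil marker sums (6 genes) were 0.214 to 0.958 CPM in the NX libraries, 24.8 to 91.3 CPM in WT IRI and 5.22 to 40.8 CPM in TG IRI. Proximal tubule markers (6 genes) summed to at least 10495 CPM in every library. These are bulk samples, so fewer cells of a type and less RNA per cell cannot be told apart.

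**Figure D1:**
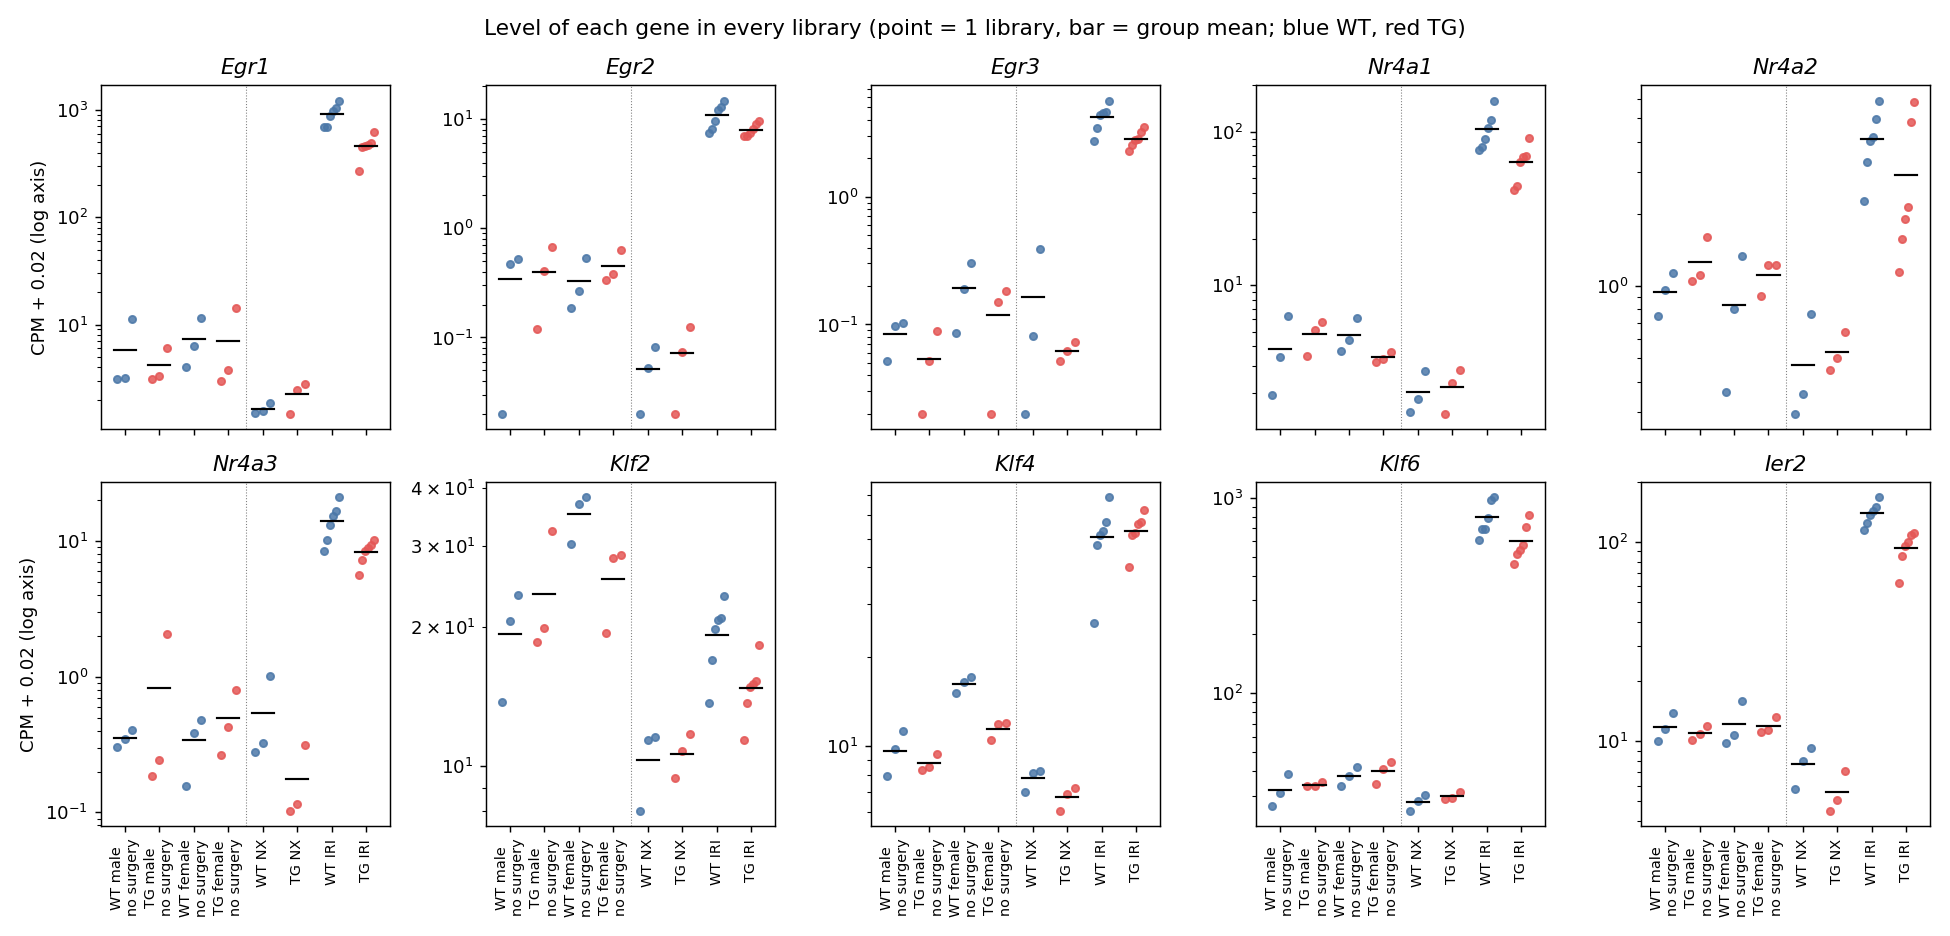
Level of each of the 10 genes in all 30 libraries, as CPM + 0.02 on a log axis; each point is 1 library, bars are group means, blue is WT and red is TG, and the dotted line separates the 2 count tables. For 8 of the 10 genes all 12 IRI points lie above all 18 other points, the exceptions being Klf2 and Nr4a2. The share of all genes for which this held was not computed.

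All 10 genes rose with IRI against NX in WT kidneys, and in none did the 6 IRI and 3 NX libraries overlap. Of 19264 genes tested, 16.8% were called higher and 14.1% lower in this comparison, and 14.2% were higher without overlap. In TG kidneys all 10 were also called higher, 9 of them without overlap, against 16.4% of genes called higher, 13% called lower and 17.3% higher without overlap. The median log2 fold change of the 10 was 4.8 in WT and 4.6 in TG, beside -0.01 over all genes in both. The WT changes spanned a wide range, from 9.13 ± 0.35 for Egr1 to 0.90 ± 0.17 for Klf2. For 8 of the 10 genes the lowest IRI library also exceeded the highest of the NX and no-surgery libraries together. This is a description across separately scaled tables with no test, and the share of all genes for which it held was not computed.

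**Figure D2:**
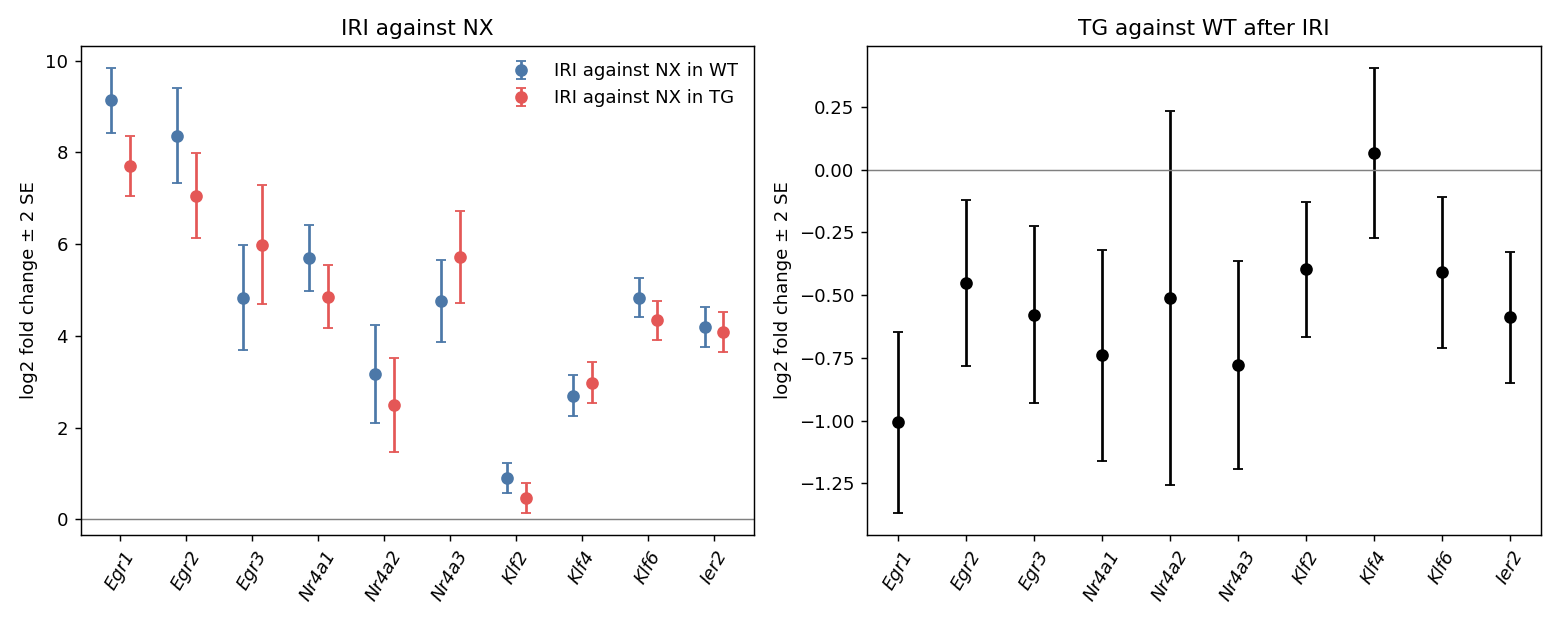
Left, log2 fold change of IRI against NX for each gene in WT (blue) and TG (red); right, log2 fold change of TG against WT among the IRI libraries. Points are edgeR estimates and bars are 2 SE. All intervals on the left lie above 0, with Klf2 lowest, and on the right 9 of 10 points lie below 0, Klf4 alone above it.

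Egr1 had the largest estimated change of the set in both genotypes. In NX kidneys it was at 1.48, 1.56 and 1.83 CPM in WT and 1.45, 2.78 and 2.45 CPM in TG. In IRI kidneys the lowest, median and highest library had 686, 922 and 1219.9 CPM in WT and 267, 465 and 617 CPM in TG. The lowest IRI library was far above the highest NX library in each genotype, and by length Egr1 became the most abundant of the 10 messages in WT IRI, at 203.8 ± 45.9 CPM per kb of exon. Egr1 thus rose by a log2 fold change of 9.13 ± 0.35 in WT (edgeR adjusted p = 1.01e-12) and 7.70 ± 0.33 in TG (edgeR adjusted p = 3.97e-12). Among 19264 genes the WT change was number 12 by size. The interval of 2 SE for Egr1 in WT was 8.43 to 9.84, overlapping that of Egr2, 7.33 to 9.40.

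Egr2, the EGR gene best known for Schwann cell myelination and hindbrain patterning, was almost absent before injury. Its 3 NX libraries had 0, 0.0611 and 0.0322 CPM in WT and 0.104, 0 and 0.0533 CPM in TG. After IRI the lowest, median and highest library had 7.47, 10.9 and 14.8 CPM in WT and 6.94, 7.80 and 9.58 CPM in TG. Its log2 fold change was 8.37 ± 0.52 in WT and 7.06 ± 0.46 in TG, on NX totals too small to fix its size. Leaving out WT NX replicate 1 moved the WT value to 9.29, and leaving out TG NX replicate 0 moved the TG value to 8.03. A short stretch before a RefSeq start of Egr2 (GRCm38.p6, plus strand, chr10:67537794-67537821) is shown because it holds a CArG box and a CRE half-site close together, both in capitals.

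Egr2, 75 to 48 bases before the start: agtCCATATATGGgcagcgaCGTCAcgg

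A CArG box was found in the 250 bases before the start in 1.47% of 32851 RefSeq promoters, both strands searched. Among the 7 of the 10 genes with a RefSeq promoter window, Egr2 alone had one. These 7 genes had 11 windows, and Egr2 had more of them than any other gene. Not every Egr2 window held a CArG box. The printed stretch is from a window with the most CRE half-sites among those that did. Promoters of Egr1, Egr3 and Ier2 were not used here. A match of letters is no evidence of binding.

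Egr3, an EGR gene induced downstream of antigen receptors and growth factors, reached 4.19 ± 1.0 CPM in WT IRI and 2.82 ± 0.44 CPM in TG IRI. The NX libraries had 0.371, 0.0611 and 0 CPM in WT and 0.0415, 0.0320 and 0.0533 CPM in TG. WT NX replicate 0, the high one, was also the library with the highest adipocyte marker sum among the NX libraries, 222 CPM over 4 genes, and the part of such RNA in this value was not tested. In edgeR its log2 fold change was 4.84 ± 0.57 in WT and 5.99 ± 0.65 in TG, and without WT NX replicate 0 the WT value was 6.996. Both calls held in edgeR, with adjusted p of 3.40e-06 and 1.06e-06.

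The NR4A genes rose in the order Nr4a1, Nr4a3, Nr4a2 in WT. Nr4a1, the family member also called Nur77, had 2.75, 1.48 and 1.80 CPM in WT NX and 2.29, 1.44 and 2.77 CPM in TG NX. In IRI its lowest, median and highest library had 76.1, 97.0 and 158.9 CPM in WT and 41.7, 65.9 and 91.2 CPM in TG. All IRI libraries were far above all NX libraries, and the log2 fold change was 5.70 ± 0.36 in WT and 4.86 ± 0.34 in TG (edgeR adjusted p = 7.44e-10 and 4.01e-09).

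Nr4a3, also called NOR1, had 0.989, 0.306 and 0.257 CPM in WT NX and 0.0831, 0.0960 and 0.293 CPM in TG NX. Its IRI libraries ran from 8.40 through a median of 14.2 to 21.04 CPM in WT and from 5.60 through 8.72 to 10.2 CPM in TG, without overlap with NX. Nr4a3 had a log2 fold change of 4.76 ± 0.45 in WT and 5.72 ± 0.50 in TG (edgeR adjusted p = 1.81e-07 and 6.95e-08). The WT value was 5.65 without WT NX replicate 0, again the highest NX library, and the TG value 6.52 without TG NX replicate 2.

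Nr4a2, or NURR1, known for its part in dopamine neurons, had the smallest rise of its family. It stood at 0.742, 0.336 and 0.274 CPM in WT NX and 0.623, 0.480 and 0.426 CPM in TG NX, and at 2.25, 4.08 and 5.91 CPM (lowest, median, highest) in WT IRI. The TG IRI libraries spread over 5.22-fold, the widest of the 10 genes in an IRI group, with 4.82 and 5.85 CPM in replicates 0 and 1 and 1.12 to 2.12 CPM in the other 4. The log2 fold change was 3.18 ± 0.53 in WT and 2.49 ± 0.51 in TG (edgeR adjusted p = 0.000158 and 0.000972). Of the 10 genes, only Nr4a2 and Klf2 had IRI libraries within the range of the no-surgery libraries.

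The promoter stretches of the 3 NR4A genes are shown because each 250-base window held 4 CRE half-sites (TGACG on either strand, here in capitals as TGACG or CGTCA). They are RefSeq sequences of GRCm38.p6, for Nr4a1 at chr15:101266603-101266820 on the plus strand, for Nr4a2 at chr2:57124100-57124213 on the minus strand and for Nr4a3 at chr4:48045064-48045152 on the plus strand. None overlaps an exon of its own gene in GENCODE M21, and exons of other genes were not checked. The fourth half-site of Nr4a3 lies within such an exon and is not printed.

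Nr4a1, 243 to 26 bases before the start: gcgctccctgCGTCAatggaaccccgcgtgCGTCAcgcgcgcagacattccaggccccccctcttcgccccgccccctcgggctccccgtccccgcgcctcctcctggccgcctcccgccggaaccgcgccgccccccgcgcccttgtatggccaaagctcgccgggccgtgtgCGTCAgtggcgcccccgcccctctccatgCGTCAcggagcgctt

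Nr4a2, 210 to 97 bases before the start: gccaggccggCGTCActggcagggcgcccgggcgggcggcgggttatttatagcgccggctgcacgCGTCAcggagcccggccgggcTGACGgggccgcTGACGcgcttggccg

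Nr4a3, 241 to 153 bases before the start: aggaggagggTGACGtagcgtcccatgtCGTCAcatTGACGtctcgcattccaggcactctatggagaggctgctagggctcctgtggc

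At least 1 such half-site was present in 17.8% of the 32851 promoters and 4 or more in 0.137%. Klf2 and Klf4 had 1 each and Klf6 had 0. The full palindrome TGACGTCA, in which a half-site on each strand overlaps, was in 1.55% of promoters and in none of these genes. The EGR site GCGNGGGCG, present in 4.70% of promoters, occurred 2 times before Klf4 and 1 time each before Klf2, Nr4a1 and Nr4a2. The NR4A monomer site AAAGGTCA (1.34% of promoters) was in none. The CACCC box was in 52.0% of promoters, 3 times before Nr4a3 and 1 time each before Egr2, Klf2 and Nr4a2.

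The KLF genes rose unequally. Klf6 had 25.1, 27.9 and 30.2 CPM in WT NX and 31.1, 28.9 and 29.0 CPM in TG NX. In IRI its lowest, median and highest library had 605, 740.1 and 1005 CPM in WT and 457, 558 and 811 CPM in TG. The NX libraries were nearly level and every IRI library was far above them. The log2 fold change was 4.84 ± 0.22 in WT and 4.34 ± 0.21 in TG (edgeR adjusted p = 5.95e-12 and 2.20e-11). By length Klf6 was next after Egr1 in WT IRI, at 180.6 ± 36.9 CPM per kb, within the spread of Egr1. In TG IRI it was the higher of these 2, at 137 ± 30.4 against 102.3 ± 25.1 CPM per kb, again with overlapping spreads.

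Klf4 had 8.24, 6.996 and 8.13 CPM in WT NX and 6.06, 6.91 and 7.24 CPM in TG NX. In IRI it had 26.0, 52.1 and 68.8 CPM (lowest, median, highest) in WT and 40.0, 54.1 and 62.3 CPM in TG. For Klf4 the log2 fold change was 2.7 ± 0.22 in WT and 2.98 ± 0.23 in TG (edgeR adjusted p = 3.21e-08 and 1.19e-08). Its lowest IRI value, 26.0 CPM, belonged to WT IRI replicate 5, and the other 5 WT libraries had 47.4 to 68.8 CPM.

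Klf2 moved least. It had 8.01, 11.5 and 11.4 CPM in WT NX and 11.7, 9.42 and 10.8 CPM in TG NX, and in IRI 13.7, 20.3 and 23.4 CPM (lowest, median, highest) in WT and 11.4, 14.96 and 18.3 CPM in TG. The WT groups did not overlap, while the lowest TG IRI library lay below the highest TG NX library. The log2 fold change was 0.90 ± 0.17 in WT (edgeR adjusted p = 0.000427) and 0.47 ± 0.16 in TG (edgeR adjusted p = 0.0365). The TG call was lost with upper-quartile scaling, which set the change to 0.33 (adjusted p = 0.135), and without any 1 of 7 of its 9 libraries: TG IRI replicates 0, 1, 2 and 3 and all 3 TG NX replicates. The IRI levels of Klf2, all from males, were not above those of kidneys without surgery in their separately scaled table. These had 13.7 to 38.2 CPM over both sexes and 13.7 to 32.4 CPM in males.

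Ier2 had 7.97, 5.77 and 9.20 CPM in WT NX and 7.06, 5.06 and 4.48 CPM in TG NX. After IRI the lowest, median and highest library had 115, 140.7 and 168 CPM in WT and 62.1, 98.0 and 111.6 CPM in TG. The log2 fold change was 4.19 ± 0.22 in WT and 4.08 ± 0.22 in TG (edgeR adjusted p = 5.03e-11 and 8.65e-11), the smallest gap between genotypes in the set.

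Levels in NX kidneys lay below those without surgery for some of these genes. All 6 NX libraries lay below all 12 no-surgery libraries for Egr1 (1.45 to 2.78 against 2.98 to 14.3 CPM), Klf2 (8.01 to 11.7 against 13.7 to 38.2 CPM) and Ier2 (4.48 to 9.20 against 9.85 to 15.9 CPM). For the other 7 genes these ranges overlapped. The share of all genes lying lower in NX without overlap was not computed. The endothelium marker sum (7 genes) was also lower in NX, at 284 to 352 CPM against 478 to 740 CPM. So was the fibroblast sum (5 genes), at 102 to 146 against 162 to 369 CPM. The no-surgery libraries were of both sexes and the NX libraries of males only. In male no-surgery libraries the endothelium sum was 500 to 588 CPM and the fibroblast sum 162 to 224 CPM. Proximal tubule sums overlapped and reached higher in NX, at 13548 to 20123 against 10495 to 14529 CPM. Table and surgery cannot be told apart here, so no test was made.

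Relatives and partners of these factors were counted from lists. Over all genes, 16.8% were called higher and 14.1% lower in WT, and 16.4% and 13% in TG. Of 4 other EGR-family genes and corepressors, 3 rose with IRI in WT and 2 in TG, and none fell. They included the NAB corepressors that bind EGR proteins, Nab2 (15.3 ± 4.85 against 6.23 ± 1.55 CPM, log2 fold change 1.30 ± 0.23 in WT) and Nab1 (0.50 ± 0.13). The third was Egr4, at 0.203 ± 0.15 CPM in WT IRI and 0 counts in WT NX. Of 14 other KLF genes 12 were tested, and 6 rose and 3 fell in WT while 7 rose and 1 fell in TG, with a median log2 fold change of 0.50 and 0.86. The largest rises in WT were Klf5, an epithelial proliferation factor, from 1.24 ± 0.50 to 19.6 ± 2.77 CPM, then Klf11 (2.53 ± 0.19) and Klf7 (1.59 ± 0.13). Those that fell were Klf1, an erythroid factor (-1.25 ± 0.31), Klf15, a metabolic regulator (-0.70 ± 0.21), and Klf12 (-0.57 ± 0.11).

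All 10 other early response genes rose in both genotypes, with a median log2 fold change of 3.22 in WT and 3.12 in TG. The largest in WT were Maff, a small MAF factor (6.63 ± 0.35), Arc, a neuronal activity gene (6.57 ± 0.42), and Ccn1, a matricellular protein also called CYR61 (5.19 ± 0.39). Of 15 regulators that act upstream, 9 rose and 2 fell in WT and 10 rose and 4 fell in TG. Of all genes, 16.8% rose and 14.1% fell in WT, and 16.4% rose and 13% fell in TG. Srf rose by 1.11 ± 0.10 in WT, Crem, a CREB-family gene, by 0.97 ± 0.15, and Mef2d by 0.75 ± 0.11. Creb1 itself fell by 0.97 and Crtc1, a CREB coactivator, fell by 0.68. Of the 3 RXR receptors that pair with NR4A proteins, Rxra (-0.41 ± 0.10) and Rxrb (-0.28 ± 0.09) fell in WT and none was called in TG.

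Of 8 genes known as KLF2 or KLF4 targets in endothelium, 7 rose in both genotypes, and Tek fell in TG. The list holds targets that these factors are known to raise and to repress, so the number that rose gives no direction of their action, which was not tested. Those with the largest WT changes were Sele, the E-selectin gene that leukocytes bind (4.94 ± 0.56), Edn1, endothelin 1 (2.68 ± 0.28), and S1pr1, the sphingosine phosphate receptor (2.39 ± 0.21). Of 7 endothelium markers 2 rose in WT, Cdh5 (1.24 ± 0.16) and Pecam1 (0.60 ± 0.17), and in TG 1 rose and 1 fell. With 16.8% of all genes higher in WT, and 16.4% higher and 13% lower in TG, these few calls do not set the markers apart. The marker sum was 304 to 351 CPM in WT NX and 263 to 564 CPM in WT IRI, and the part of cell makeup in the target values was not tested.

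Because the members of a family rose unequally, its makeup changed. Each gene's share of its family's counts per kb was computed in each library, a measure that does not depend on library scaling. In WT, Klf6 held 42.7, 43.7 and 44.8% of the 3 KLF genes in the NX libraries (lowest, median, highest) and 84.1, 87.3 and 89.6% in the IRI libraries. In TG its mean share was 45.9 ± 1.31% in NX and 83.97 ± 3.02% in IRI. Klf2 went the other way although its own level rose, from 38.4 ± 4.05 to 5.16 ± 1.23% in WT and from 39.1 ± 2.31 to 5.07 ± 1.32% in TG. Neither gene's IRI shares overlapped its NX shares in either genotype. Each of these 4 differences had p = 0.0238 in an exact two-sided permutation test, unadjusted and the smallest that 6 against 3 libraries can give.

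Nr4a1 gained within its family, from 75.8 ± 6.53 to 89.8 ± 1.19% in WT and from 79.5 ± 4.17 to 89.5 ± 1.61% in TG. Nr4a2 lost, from 13.9 ± 2.79 to 3.09 ± 0.83% and from 17.2 ± 5.46 to 3.41 ± 1.73%. The exact permutation p was again 0.0238 for each. Nr4a3 reached a like share in both IRI groups, 7.08 ± 0.996 and 7.10 ± 1.14%, from 10.2 ± 3.96% in WT NX (exact permutation p = 0.119) and 3.28 ± 1.77% in TG NX (exact permutation p = 0.0238). Egr1 held most of the EGR family throughout, at 89.7 ± 9.16% in WT NX and 98.0 ± 0.45% in WT IRI (exact permutation p = 0.0952). In all, 18 shares were tested, 9 genes in 2 genotypes, and 11 had the p of 0.0238. Shares within a family depend on each other and follow from the unequal rises given above, so these are not separate results.

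**Figure D3:**
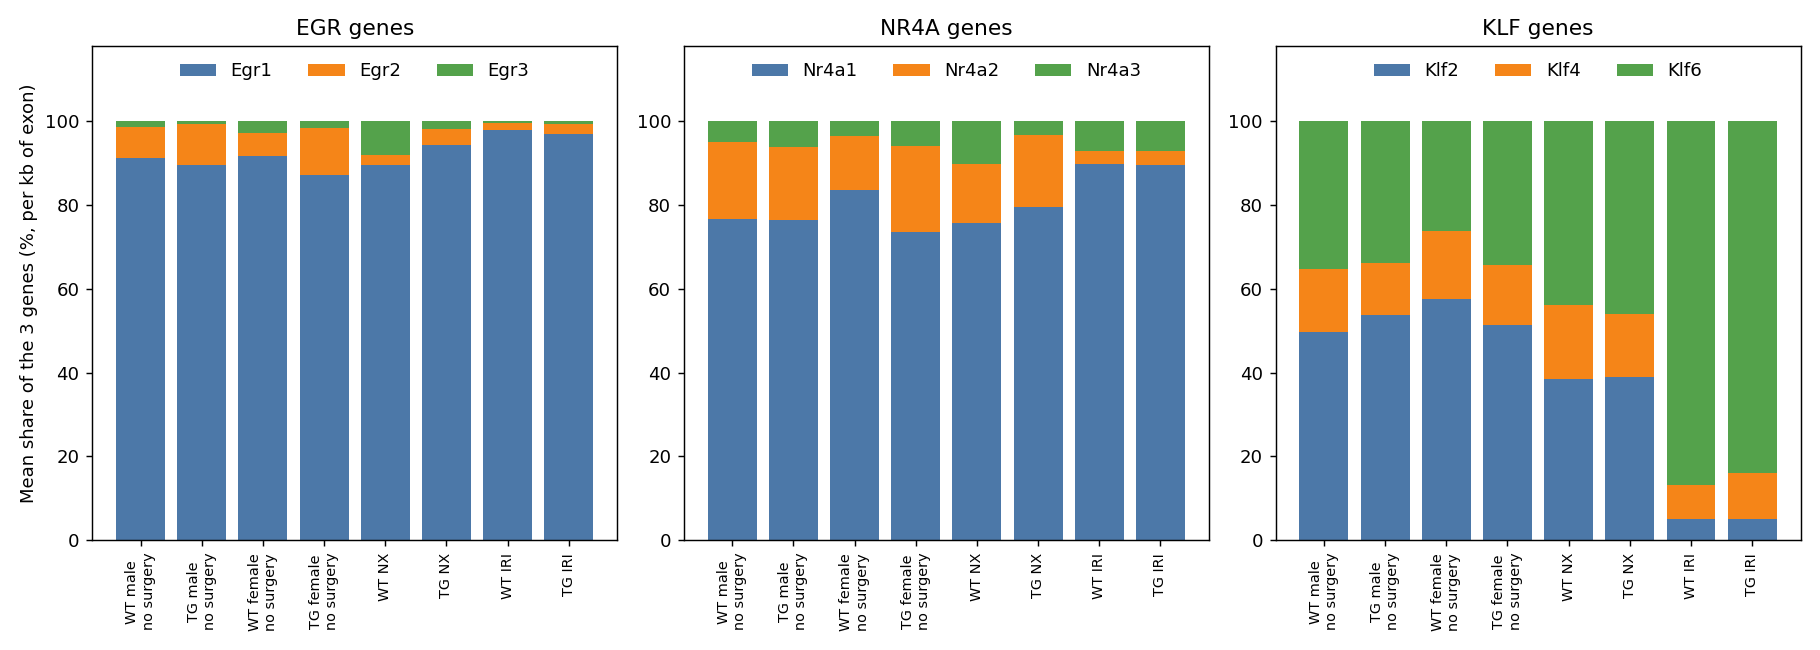
Mean share (%) of each gene within its family's 3 genes, from counts per kb of exon, in the 8 groups; each stacked bar is a group mean over 3 or 6 libraries. Klf6 takes 86.8% of the KLF bar in WT IRI and 83.97% in TG IRI, against 43.8 and 45.9% in NX.

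The comparison stated by the series, TG against WT after IRI, gave no call among the 10 genes in edgeR, where 12 of 17111 genes (0.0701%) were called in either direction. All the same, 9 of the 10 had lower estimates in TG, with a median log2 fold change of -0.54 beside -0.01 over all genes. At an unadjusted p under 0.05, 8 of 10 were lower, where 7.84% of all genes were. In Egr1 and Ier2 all 6 TG libraries lay below all 6 WT libraries, which held for 0.468% of all genes. The 10 genes were measured in the same libraries and some varied together, so these counts are not separate observations. DESeq2 called 4 of the 10 lower, Egr1, Nr4a1, Nr4a3 and Ier2, among 363 genes it called in all, and limma-voom called 0.

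Egr1 differed most, at 459 ± 112.3 CPM in TG against 914 ± 206 CPM in WT, a log2 fold change of -1.01 ± 0.18 (edgeR adjusted p = 0.0604). Its highest TG library, 617 CPM, stayed below its lowest WT library, 686 CPM. Across the alternative fits its estimate ran from -1.10 to -0.89, and its adjusted p was under 0.05 with all 18 libraries in the fit (0.0429), without a count filter (0.0107), in DESeq2, and without WT IRI replicate 2 (0.0330), WT IRI replicate 3 (0.0394) or TG IRI replicate 1 (0.0484). Without the library labelled WT IRI replicate 1, which held EGFP counts, it was -1.07 (edgeR adjusted p = 0.0527).

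Ier2 was next by p, at 93.9 ± 18.1 CPM in TG against 140.1 ± 18.7 CPM in WT (-0.59 ± 0.13, edgeR adjusted p = 0.106). Nr4a3 had -0.78 ± 0.21 and Nr4a1 -0.74 ± 0.21, with edgeR adjusted p of 0.168 and 0.178. Besides DESeq2, Nr4a3 was called without WT IRI replicate 3 (-0.89, edgeR adjusted p = 0.0491). Egr3 (-0.58 ± 0.18), Egr2 (-0.45 ± 0.16), Klf6 (-0.41 ± 0.15) and Klf2 (-0.40 ± 0.13) had adjusted p between 0.207 and 0.273. The interval of 2 SE for Nr4a2 ran from -1.25 to 0.23. Leaving out the library labelled WT IRI replicate 1 again gave no call in edgeR and 9 lower estimates of 10, with Ier2 at -0.64 (adjusted p = 0.0915), Nr4a3 at -0.8 (adjusted p = 0.172), Nr4a1 at -0.74 (adjusted p = 0.203), Egr3 at -0.56, Egr2 at -0.48, Klf6 at -0.44, Nr4a2 and Klf2 at -0.38 and Klf4 at 0.07.

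Klf4 alone had no lower estimate in TG, at 53.1 ± 7.53 against 50.5 ± 14.1 CPM (0.06 ± 0.17, edgeR adjusted p = 0.901, interval of 2 SE from -0.27 to 0.40). Its direction was not stable, at -0.07 without WT IRI replicate 5 and -0.02 in limma-voom. The other early response genes showed the same comparison with 1 call in 10, Ccn1 (-0.84, edgeR adjusted p = 0.0435), and a list median of -0.18. None of the 12 tested other KLF genes was called, with a median of 0.01.

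Red cell marker sums (4 genes) were 107 to 1268 CPM in WT IRI and 28.1 to 145.7 CPM in TG IRI. The neutrophil sums given above reached lower in TG, with overlapping ranges. Macrophage sums were alike, 75.3 to 102.1 and 83.8 to 94.0 CPM. Their part in the genotype differences was not tested. Without WT IRI replicate 5, which had the highest red cell, neutrophil and endothelium sums, Egr1 was at -0.96 (edgeR adjusted p = 0.0921), Ier2 at -0.59 (edgeR adjusted p = 0.150) and Nr4a3 at -0.62 (edgeR adjusted p = 0.276).

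The interaction, which asks whether the IRI response itself differed between genotypes, gave 0 calls among 19264 genes in edgeR (0%), and 9.59% of genes had an unadjusted p under 0.05. Egr1 and Nr4a1 were the 2 members among these. The rise of Egr1 had a smaller estimate in TG, with an interaction of -1.44 ± 0.34 (edgeR adjusted p = 0.376), and DESeq2 called it (-1.46, adjusted p = 0.00963) among 41 genes in all. For Nr4a1 the difference was -0.84 ± 0.40 (edgeR adjusted p = 0.517). Egr3 (1.16 ± 0.83) and Nr4a3 (0.96 ± 0.60) had positive estimates, and in both WT NX replicate 0 was the highest NX library. Without that library Egr3 turned to -1.01 and Nr4a3 was at 0.07, and in limma-voom Egr3 was at -1.28. These values share the IRI libraries with the direct comparison and are not a second test of it.

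Between genotypes after NX, 8 of the 10 genes were tested and none was called, with 0.0117% of genes called in edgeR. Nr4a3 was the 1 with an unadjusted p under 0.05, at 0.157 ± 0.118 CPM in TG and 0.517 ± 0.409 CPM in WT (edgeR adjusted p = 0.733). Egr1 was at 2.23 ± 0.69 CPM in TG and 1.63 ± 0.18 CPM in WT (log2 fold change 0.45 ± 0.29, edgeR adjusted p = 0.783). DESeq2 and limma-voom called 0.

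Libraries of the same genotype also differed in how strongly the 10 genes stood after IRI. TG IRI replicate 1 was the highest of its group for 6 genes and TG IRI replicate 2 the lowest for 5. Among WT, replicate 5 was the highest for 4 genes and the lowest for 2, and replicates 2 and 3 were each the lowest for 3. After each genotype's mean was subtracted from log2 CPM, the closest pairs over the 12 libraries were Nr4a1 with Nr4a3 (Pearson r = 0.857), Egr1 with Ier2 (0.851), Egr2 with Egr3 (0.797) and Klf6 with Ier2 (0.760). Over all 45 pairs the median r was 0.14, and 31 were positive. Klf4 had a negative r with 7 of the other 9 genes, down to -0.65 with Egr2. Without WT IRI replicate 5 that number was again 7, and the lowest r was -0.42. In the no-surgery libraries Klf4 had a negative r with 2 of 9. These correlations describe libraries that share depth, scaling and cell makeup, and carry no test.

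**Figure D4:**
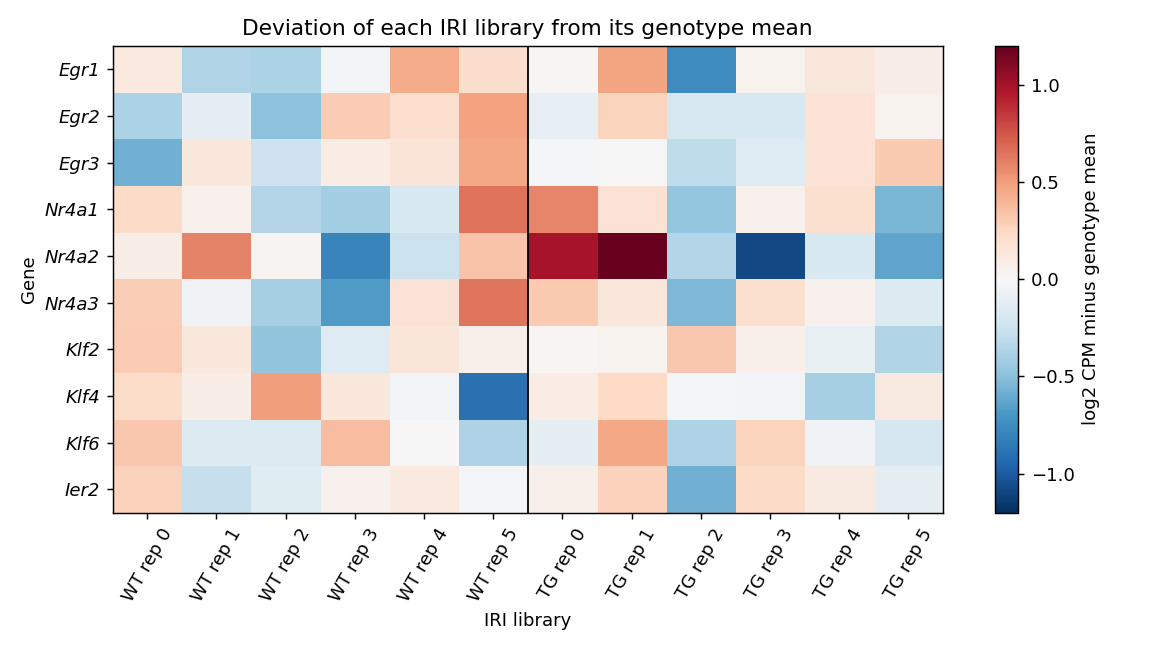
Deviation of log2 CPM (prior count 2) from the genotype mean for each gene (rows) in each of the 12 IRI libraries (columns); red is above and blue below the mean, on a scale cut at 1.2. Nr4a2 deviates most among the TG libraries, and Klf4 is low in WT replicate 5 while Nr4a1 and Nr4a3 are high there.

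Over the same 12 libraries, the genes most alike to each member were sought among 12325 others. The members themselves were left out of this search, so whether they lie nearest to each other was not tested by it. Klf4 had the closest matches, the helicase genes Ddx24 (r = 0.971) and Ddx52 (0.951) and C1qtnf3 (0.954), which were 0.903, 0.844 and 0.852 without WT IRI replicate 5. Egr1 was most like Evpl (0.914), Rab13 (0.899) and Tmem108 (0.883), and Evpl was also among the 3 nearest to Ier2 (0.857), after Itpr2 (0.907) and Plekha6 (0.888). Egr2 was nearest to Plekho2 (0.927), Cttnbp2nl (0.906) and Atp6v1g3 (0.892), and Egr3 to Cyp2s1 (0.928), Stra6 (0.914) and Plk1 (0.913). Nr4a1 was nearest to Acpp (0.918), Gnao1 (0.882) and Selenon (0.871). Nr4a3 was nearest to Islr (0.921), Tmem107 (0.919) and Insrr (0.918), and Nr4a2 to Nudt2 (0.827), Grhl1 (0.827) and Dph3 (0.823). Klf2 was nearest to Tbc1d24 (0.916), Edil3 (0.895) and Tmem45a (0.877), and Klf6 to Zfp869 (0.894), Slc17a4 (0.870) and Rwdd3 (0.862). All these genes were picked as the highest of 12325 over only 12 libraries. High r values can arise that way without any link, and none was tested.

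Without surgery, 2 of the 10 genes differed between the sexes in WT. Klf4 had 17.1, 16.5 and 15.1 CPM in females and 7.95, 9.78 and 11.2 CPM in males, and Klf2 had 30.2, 37.0 and 38.2 CPM in females and 13.7, 20.6 and 23.5 CPM in males. Neither gene's groups overlapped, and the share of all genes without overlap was not computed. Klf4 was higher in females by 0.75 ± 0.13 (edgeR adjusted p = 0.00116) and Klf2 by 0.86 ± 0.24 (edgeR adjusted p = 0.0197). Over all 19126 genes 10.1% were higher and 11.3% lower in females, so 2 calls in 10 do not set these genes apart. The number of these calls was 1 on leaving out WT male replicate 0, WT female replicate 1 or WT female replicate 2, and 3 on leaving out WT male replicate 2. Endothelium marker sums were 478 to 740 CPM in WT females and 504 to 565 CPM in WT males. Other marker sums were higher in WT females without overlap, at 2878 to 3247 against 1436 to 1606 CPM for distal tubule and collecting duct (5 genes), 5789 to 6684 against 3454 to 5340 CPM for thick ascending limb (3 genes) and 404 to 422 against 287 to 324 CPM for podocytes (3 genes). The part of cell makeup in these sex differences was not tested.

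In TG, Klf4 alone was higher in females, by 0.39 ± 0.13 (11.4 ± 0.86 against 8.75 ± 0.60 CPM, edgeR adjusted p = 0.0491). Over all genes 9.87% were higher and 11.3% lower, so 1 call in 10 does not set these genes apart either. The Klf4 call was lost with relative log expression (RLE) factors, without a count filter, in limma-voom and whenever any 1 library was left out. The sex difference of Klf2 in TG was 0.11 ± 0.23, and whether it differed from that in WT was not tested.

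TG and WT kidneys without surgery gave no call among the 10 genes in either sex in edgeR. In males 0.00523% of genes were called, and none of the 10 had an unadjusted p under 0.05. In females 0.0418% were called, and Nr4a1, Klf2 and Klf4 were lower in TG without overlap, which held for 8% of all genes. Klf4 had 11.9, 10.4 and 11.98 CPM in TG females against 15.1 to 17.1 CPM in WT females (-0.51 ± 0.13, edgeR adjusted p = 0.203), the 1 gene of the 10 with an unadjusted p under 0.05, and DESeq2 called 1 of the 10 there among 221 genes in all. Egr1 varied between no-surgery libraries of 1 group, from 2.98 to 14.3 CPM in TG females.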

How the data were processed

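The submitters' processing notes name fastp 0.23.2, STAR 2.7.0, featureCounts 2.0.3 and the build GRCm39 (mm39). What the authors deposited are unnormalized counts of reads by gene, per the file headers. Of counts of at least 10 in a library, 37.4 to 41.9% were odd, so both reads of a pair may have been counted, and halved counts were tried. Whether counting used strand is not given in the sources used here. No other gene's exons overlap those of the 10 genes in the deposited annotation. Symbols were matched by identifier in GENCODE M21, for 51881 of 57133 identifiers.

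The 2 tables were never tested against each other. edgeR 4.0.16 in R 4.3.3 was used with TMM and filterByExpr, with all 18 NX and IRI libraries in a fit for IRI against NX, 12 for TG against WT after IRI, 6 after NX and 12 without surgery. Alternatives were RLE and upper-quartile factors, no filter, DESeq2 1.42.0, limma-voom (limma 3.58.1), halved counts, other sets of libraries, a replicate block and leaving out each library. The test was checked on simulated counts. The genes, the lists and the rule for naming list genes (up to 3 highest and 3 lowest called in WT IRI against NX at 1 CPM or more, and the 3 most alike genes per member) were chosen with earlier results of these data known. Egr4, Nab1, Tek, Cdh5 and the genes' extreme libraries were named after their values were seen. Promoter sequences are from RefSeq (GRCm38.p6), not the build of the counts.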

Additional observations from a re-analysis of the deposited data

How the results depend on the processing

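The 10 calls of IRI against NX in WT were made under all alternatives tried, and in TG the number was 9 to 10 when 1 library was left out, Klf2 being the gene lost. For TG against WT after IRI the number of genes called rose from 0 to 1 without a count filter, 1 with all 18 libraries in the fit and 4 in DESeq2, and was 0 to 2 when 1 library was left out. For the interaction it was 1 in DESeq2, and for TG against WT in no-surgery females 1 in DESeq2. Leaving out 1 library left the counts at 0 for the interaction, for TG against WT after NX and for both no-surgery genotype comparisons. The sex difference in WT gave 1 to 3 calls when 1 library was left out, and that in TG gave 0, as it did with RLE factors, without a count filter and in limma-voom. Over all genes, TG against WT after IRI gave 43 calls without a filter, 363 in DESeq2 and 5 with the replicate block, against 12. Of the 18 family shares 11 passed after adjustment over the 18, and 0 did when 1 library was left out, because 5 against 3 or 6 against 2 libraries give coarser tests.

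With the replicate block the numbers of genes called were 10 and 9 (IRI against NX in WT and TG, without Klf2 in TG, adjusted p = 0.0582), 0 for the interaction and for each genotype comparison, and 2 and 1 for the sex difference. Same-numbered libraries correlated by -0.09 to 0.19 (median 0.06) in the NX and IRI table and by 0.05 to 0.56 (median 0.24) without surgery, where differently numbered ones had a median of -0.14. In neither table was every pair over 0.1, so the numbers were not taken to pair libraries, although those without surgery leaned that way. Egr2 and Egr3 had at most 24 counts in any NX library, which limits how well their fold changes are known.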
